A study of Mus musculus with 26 samples.

Results

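Insulin signalling in fat was followed here at the level of RNA through 9 genes that lead from the insulin receptor to the glucose transporter GLUT4. The members were taken by symbol from both gene count tables, which list 39017 genes, and all 9 were found and passed the filter on low counts in adipocytes and in stromal vascular cells (SVCs). They are Insr (the insulin receptor), Irs1 and Irs2 (adaptors that the receptor phosphorylates), Pik3r1 (the regulatory subunit p85 alpha of PI3 kinase), Akt2 (the Akt kinase of metabolic tissues), Tbc1d4 (the Akt substrate AS160), Slc2a4 (GLUT4 itself), Foxo1 (a transcription factor that Akt keeps out of the nucleus) and Pde3b (a phosphodiesterase through which insulin restrains lipolysis).

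When insulin binds its receptor on a fat cell, the receptor phosphorylates the adaptors, these recruit PI3 kinase, and the lipid it makes activates Akt. Akt then phosphorylates AS160, which releases vesicles that carry GLUT4 to the cell surface, where the transporter lets glucose in. Much of this control acts on proteins and their location, which a measurement of transcripts does not see.

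The mice were male wild type C57BL/6J animals aged 9 to 10 weeks at the start, and their epididymal (visceral) fat was digested with collagenase and spun to part floating adipocytes from pelleted SVCs, whose red cells were then lysed. Lean mice received a diet with 10% fat for 12 weeks (LFD), obese mice a diet with 60% fat for 12 weeks (HFD), and formerly obese mice the HFD for 9 weeks and then the LFD for 3 weeks (SW). PolyA RNA was sequenced, with 3 adipocyte libraries per diet and 1 LFD, 2 HFD and 3 SW libraries of SVCs in use here. Library totals ran from 5781902 to 23725647 counts, and the LFD adipocyte libraries (6142895 to 19720207 counts) were shallower in general than those of HFD (12223677 to 23725647).

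The fractions were first checked by their marker genes. All 8 adipocyte markers were detected in every library and were higher in adipocytes than in SVCs in both diets tested, but the floating fraction also held macrophage transcripts. The summed level of 11 macrophage markers in adipocyte libraries was 495 to 929 CPM (counts scaled to a library size of 1000000) in LFD, 7262 to 9296 in HFD and 5126 to 5946 in SW mice, while that of the 8 adipocyte markers was 13041 to 23468, 4579 to 8678 and 7313 to 11423. One SW adipocyte library, 407, stood apart from its mates, with 9.49% of its counts in genes over 5 kb against 12.5% in each of the other libraries of its group. The HFD libraries of SVCs were unlike each other, with mitochondrial transcripts at 6.34% of counts in library 212 and 33.5% in library 411, and hemoglobin transcripts at 0.287% and 3.09%.

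**Figure D1:**
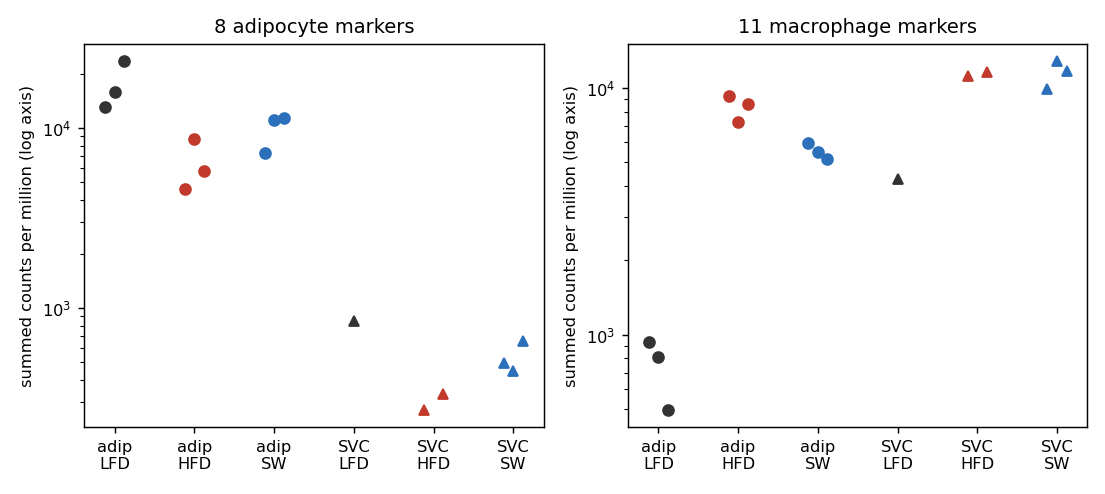
Summed level of the 8 adipocyte markers (left) and 11 macrophage markers (right) in each library, in CPM on a log axis, by fraction (adip, adipocytes) and diet. In adipocytes the macrophage sum is 495 to 929 in LFD and 7262 to 9296 in HFD libraries, which do not overlap, and the adipocyte sum is lower in every HFD library than in every LFD library.

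The promoters of the adaptors Irs1 and Irs2 are shown because Irs2 passed the test between HFD and LFD adipocytes and Irs1 did not, although the difference between them was not itself tested. RefSeq windows (GRCm38.p6) of 250 bases before and 50 after the start were given for 6 of the 9 members, and not for Insr, Slc2a4 and Pde3b. The 2 windows below, both on the minus strand, lie at chr1:82291390-82291689 for Irs1 and chr8:11008880-11009179 for Irs2. Capitals mark CAAAACA, the core of the insulin response element, or the E-box CACGTG, each searched on both strands.
Irs1: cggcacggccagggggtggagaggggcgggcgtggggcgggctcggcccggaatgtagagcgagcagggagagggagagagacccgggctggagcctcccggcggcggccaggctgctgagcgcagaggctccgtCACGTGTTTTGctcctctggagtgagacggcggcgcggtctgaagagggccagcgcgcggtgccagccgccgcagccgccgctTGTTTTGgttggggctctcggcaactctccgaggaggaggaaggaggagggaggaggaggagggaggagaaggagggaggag
Irs2: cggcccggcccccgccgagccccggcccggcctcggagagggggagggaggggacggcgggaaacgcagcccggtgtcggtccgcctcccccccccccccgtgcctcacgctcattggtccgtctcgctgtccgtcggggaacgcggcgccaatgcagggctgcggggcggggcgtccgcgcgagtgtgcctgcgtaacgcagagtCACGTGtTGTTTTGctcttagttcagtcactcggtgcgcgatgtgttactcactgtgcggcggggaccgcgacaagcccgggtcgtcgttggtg
The Irs1 window held the CAAAACA core at 2 places, starting 111 and 32 bases upstream of the start, and an E-box at 115, which overlaps the first of them. The Irs2 window held 1 core at 37 bases upstream and 1 E-box at 44. Of 32851 promoter windows of this length, 6.28% held the core, 7.15% the E-box and 0.408% both. The FOXO core GTAAACA was in none of the members' windows and in 3.65% of all windows, and no other member's windows held any of the 3 motifs. These matches describe letters in a window and not sites that a factor was shown to bind.

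Scaled to library size and to transcript length, Akt2 was the most abundant member in lean adipocytes at 61.3 CPM per kb, followed by Slc2a4 at 39.3, Pde3b at 27.4 and Pik3r1 at 20.3. Foxo1 (10.3), Insr (8.55) and Tbc1d4 (5.55) came next, and the adaptors were lowest, with Irs1 at 0.369 and Irs2 at 0.343 CPM per kb. In HFD mice the level of Slc2a4 per kb was 10.1, below those of Akt2 (45.3), Pde3b (18.3) and Pik3r1 (16.1), and in SW mice it stood at 24.6, below that of Akt2 (45.1) alone. Irs1 and Irs2 are thus low count genes here, and their values carry wide errors.

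High fat feeding lowered the transcripts of the receptor, Akt2, GLUT4 and FOXO1 in adipocytes and raised that of Irs2. Of the 9 members, 4 were lower and 1 was higher in HFD than in LFD mice, where 25% of all 14461 genes tested were lower and 26.5% were higher, so these counts are read against a background of about 1 gene in 4 each way. The median log2 fold change was -0.44 over the members and -0.03 over all genes tested. Adipocyte markers as a list were lower too, 6 of 8 at a median log2 of -1.04, and all 11 macrophage markers were higher at a median of 3.36. Mesothelial (5 of 5), red cell (5 of 5) and endothelial (3 of 5) markers were lower in HFD libraries as well. Fibroblast and progenitor markers were higher for 2 of 5 genes, at a median log2 of 0.65. In bulk RNA, fewer adipocytes in the fraction and less RNA of a gene in each adipocyte cannot be told apart, and the part of this shift in the members' changes was not tested.

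**Figure D2:**
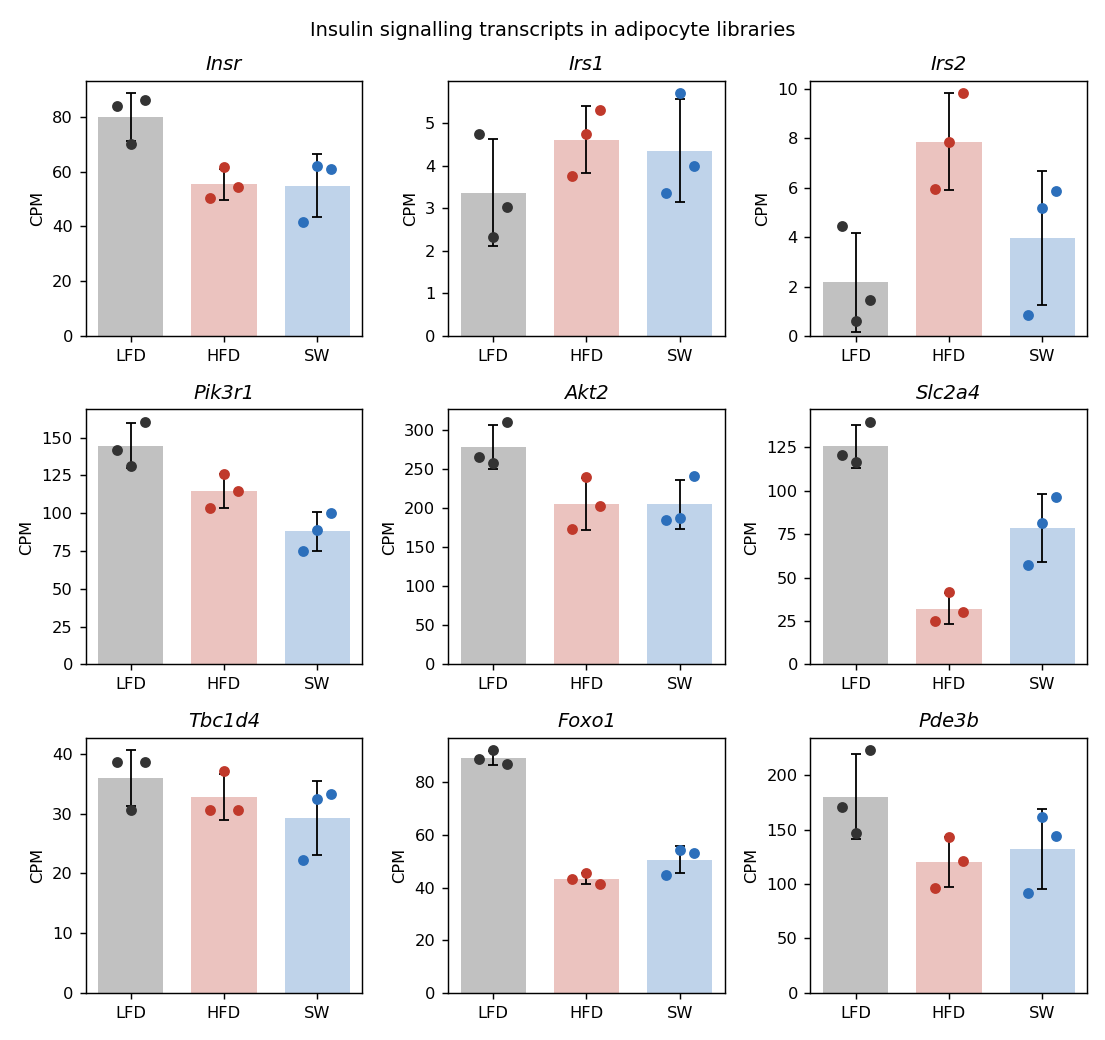
Level of each transcript in the 9 adipocyte libraries, in CPM, by diet. Points are libraries, bars are group means from 0, and error bars are 1 SD (n = 3). Slc2a4 and Foxo1 libraries of LFD mice lie above all HFD and SW libraries, and in Slc2a4 all SW libraries lie above all HFD libraries.

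Slc2a4 had the largest fall of the 9 members. Its level was 121, 116 and 139.8 CPM in the LFD libraries and 24.8, 41.8 and 30.0 CPM in the HFD libraries. Every HFD library was below every LFD library, and the fitted log2 fold change was -1.96 ± 0.23 (SE, n = 3 per group, adjusted p = 9.68e-05), a 3.89-fold lower level. The call held in all 15 alternatives, with log2 fold changes from -2.18 to -1.81.

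Tbc1d4, whose protein holds GLUT4 vesicles back until Akt phosphorylates it, did not pass the test. It was at 38.7, 30.6 and 38.6 CPM in LFD and at 30.6, 37.2 and 30.6 CPM in HFD libraries. These ranges overlap, and the log2 fold change was -0.13 ± 0.17 (SE, adjusted p = 0.564).

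Foxo1 was at 88.6, 92.2 and 87.0 CPM in LFD and at 43.3, 45.5 and 41.5 CPM in HFD libraries. The groups were far apart against a narrow spread within each, with a log2 fold change of -1.04 ± 0.11 (SE, adjusted p = 4.75e-05) that was called in all 15 alternatives.

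Insr fell from 83.9, 70.0 and 86.1 CPM in LFD to 50.3, 61.6 and 54.3 CPM in HFD libraries. The groups did not overlap, and the log2 fold change was -0.53 ± 0.16 (SE, adjusted p = 0.0218). Leaving out HFD library 401 or 403, or LFD library 404 or 406, raised the adjusted p above the threshold, to 0.0737 at most.

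Akt2 fell by less. It was at 266, 259 and 311 CPM in LFD and at 174, 240.4 and 203 CPM in HFD libraries, again without overlap. Its log2 fold change of -0.44 ± 0.16 (SE) passed narrowly, with an adjusted p of 0.0466. It was lost when any library except HFD library 402 was left out, with adjusted p up to 0.152.

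Irs2 moved the other way on few reads. LFD libraries had 28, 12 and 11 counts and HFD libraries 79, 188 and 220, which scale to 4.44, 0.619 and 1.45 CPM against 5.94, 7.85 and 9.84 CPM. Every HFD library was above every LFD library, and the log2 fold change was 2.06 ± 0.71 (SE, adjusted p = 0.0331). Only 8 of 14 alternatives kept the call, and it was lost without any 1 library apart from LFD library 404, with adjusted p up to 0.125. Irs1, the other adaptor, overlapped between the diets, at 4.76, 2.32 and 3.03 CPM in LFD and 3.76, 4.76 and 5.32 CPM in HFD libraries, with a log2 fold change of 0.51 ± 0.31 (SE, adjusted p = 0.187).

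Pik3r1 and Pde3b had lower means in HFD mice and did not pass. Pik3r1 was at 142, 131 and 161 CPM in LFD and 104, 126 and 114 CPM in HFD libraries, with a log2 fold change of -0.33 ± 0.14 (SE, adjusted p = 0.0707). Pde3b was at 170.3, 147 and 223 CPM in LFD and 96.8, 143 and 121 CPM in HFD libraries, with a log2 fold change of -0.58 ± 0.24 (SE, adjusted p = 0.0624). Neither gene's groups overlapped, and with a correction for GC content and transcript length both passed, Pik3r1 at -0.76 and Pde3b at -0.998 on the log2 scale. Over all genes, long transcripts were higher in HFD than in LFD mice, with a median log2 of 0.24 for genes over 5 kb and -0.39 for genes under 2 kb. All members but Slc2a4 (3.19 kb) and Akt2 (4.54 kb) have transcripts over 5 kb.

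Switching obese mice to the LFD raised Slc2a4 in adipocytes, and no other member passed the test in either direction. This is 1 of 9 members higher and 0 lower, against 15.6% of all genes higher and 15.9% lower. The SW libraries of Slc2a4 were at 57.4, 81.5 and 96.3 CPM, above every HFD library and below every LFD library. The log2 fold change from HFD was 1.28 ± 0.22 (SE, n = 3 per group, adjusted p = 0.00572), a 2.43-fold rise that was called in all 15 alternatives. Of the adipocyte markers, 3 of 8 were also higher in SW than in HFD mice, with a median log2 of 0.61 over the list. Macrophage markers were lower for 5 of 11 genes (median -0.48) and red cell markers higher for 4 of 5 (median 1.15). Fibroblast and progenitor markers were lower for 1 of 5 (median -0.58). B cell markers were higher for 2 of 4 (median 1.13) and T cell markers for 1 of 4 tested (median 1.26). The part of these lists in the rise of Slc2a4 was not tested.

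The other members that were called between HFD and LFD did not pass in the switch. Foxo1 was at 44.6, 54.2 and 53.0 CPM in SW libraries, with a log2 fold change from HFD of 0.22 ± 0.11 (SE, adjusted p = 0.130), and its groups overlapped through library 407. Without library 407 it passed at 0.30 (adjusted p = 0.0461), and with the correction for GC content and length it passed at 0.68 (adjusted p = 0.00715). Insr was at 41.5, 62.2 and 61.0 CPM and Akt2 at 186, 188 and 241 CPM in SW libraries, and their log2 fold changes were -0.01 ± 0.16 and 0.00 ± 0.16 (SE, adjusted p = 0.967 and 0.986). Irs2 had 8, 86 and 82 counts in SW libraries (0.841, 5.17 and 5.87 CPM), with the low value in library 407, and its log2 fold change was -0.96 ± 0.62 (SE, adjusted p = 0.259).

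Among the remaining members, Pik3r1 did not pass either. Its SW libraries were at 74.9, 88.7 and 100.4 CPM, all under the HFD libraries, with a log2 fold change of -0.38 ± 0.14 (SE, adjusted p = 0.0616). It passed in DESeq2 and without SW library 409 (adjusted p = 0.031 and 0.0483), and its sign turned to 0.06 with the correction for GC content and length. Irs1 (3.36, 5.71 and 4.01 CPM), Tbc1d4 (22.2, 32.4 and 33.3 CPM) and Pde3b (91.5, 161 and 144 CPM) in SW libraries all overlapped the HFD values, and their adjusted p-values lay between 0.495 and 0.866. In these 3 genes the lowest SW value was that of library 407. Over all genes the SW against HFD comparison ran with transcript length (Spearman's rho -0.48 across genes, which are not independent replicates), with a median log2 of -0.34 for genes over 5 kb and 0.49 for those under 2 kb.

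**Figure D3:**
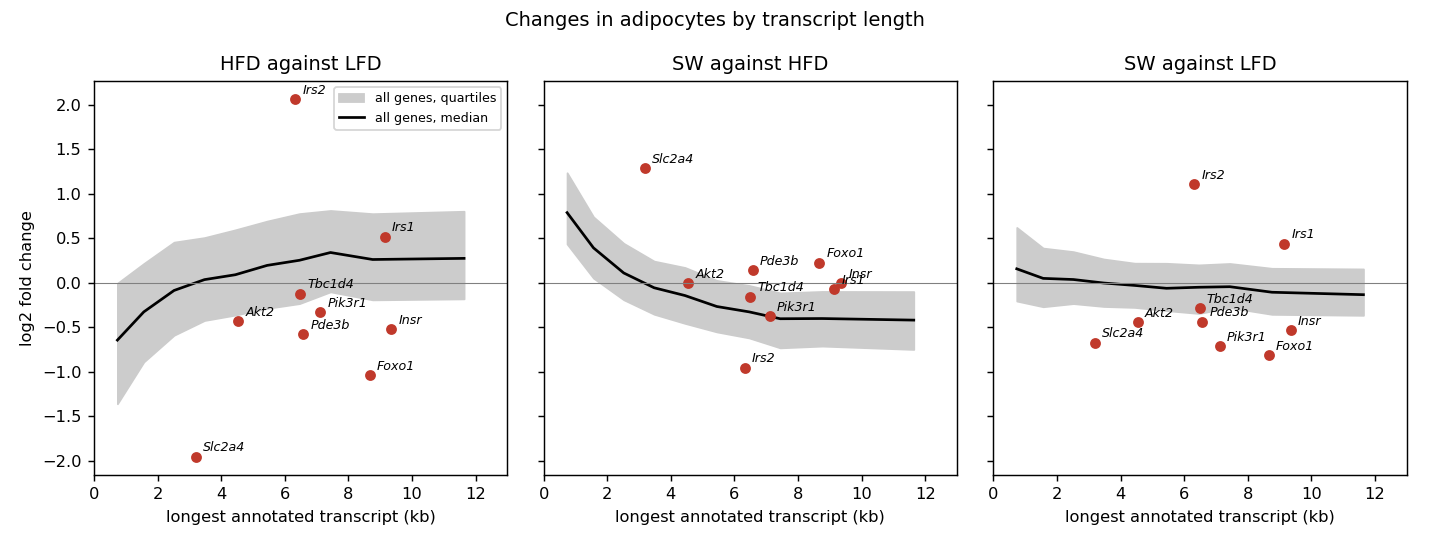
Fitted log2 fold change in adipocytes against the longest annotated transcript (kb), for the 3 diet comparisons. The line and band are the median and quartiles of all genes in bins of length, and labelled points are the 9 members. Slc2a4 lies below the band in HFD against LFD and above it in SW against HFD, and Foxo1 lies below the band in HFD against LFD and above it in SW against HFD. In HFD against LFD, Insr, Pik3r1, Akt2 and Pde3b also lie below the band, and Irs2 lies above it. In SW against HFD, Insr, Irs1 and Pde3b also lie above the band, and Irs2 lies below it.

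Compared with lean mice, formerly obese mice had less Insr, Pik3r1 and Foxo1 transcript in adipocytes. These are 3 of 9 members lower, where 6.18% of all genes tested were lower, and 0 higher, where 10.9% were higher. For Foxo1 every SW library (44.6 to 54.2 CPM) was under every LFD library (87.0 to 92.2 CPM), at a log2 fold change of -0.82 ± 0.11 (SE, adjusted p = 0.000585). Pik3r1 also had separate ranges, 74.9 to 100.4 CPM against 131 to 161 CPM, at -0.71 ± 0.14 (SE, adjusted p = 0.00667). The calls of Foxo1 and Pik3r1 held in all 15 alternatives.

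Insr was at the edge, with a log2 fold change of -0.54 ± 0.17 (SE, adjusted p = 0.04995). Of 15 alternatives 6 kept that call, and it was lost without LFD library 404, 405 or 406 or SW library 407 or 409, with adjusted p up to 0.146. Slc2a4 stood at -0.68 ± 0.22 (SE, adjusted p = 0.0599) although its ranges did not overlap, and it passed in 4 of 15 alternatives. Akt2 (-0.44 ± 0.16), Pde3b (-0.44 ± 0.24), Tbc1d4 (-0.29 ± 0.17), Irs1 (0.44 ± 0.31) and Irs2 (1.11 ± 0.73, all log2 fold change ± SE) did not pass, with adjusted p between 0.0946 and 0.372. Macrophage markers were also higher in SW than in LFD adipocyte libraries for 11 of 11 genes at a median log2 of 2.73, while 0 of 8 adipocyte markers passed, at a median of -0.44. Endothelial (4 of 5), mesothelial (3 of 5) and red cell (3 of 5) markers were lower, at medians of -0.95, -2.18 and -0.76, and the part of these lists in the members' changes was not tested.

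**Figure D4:**
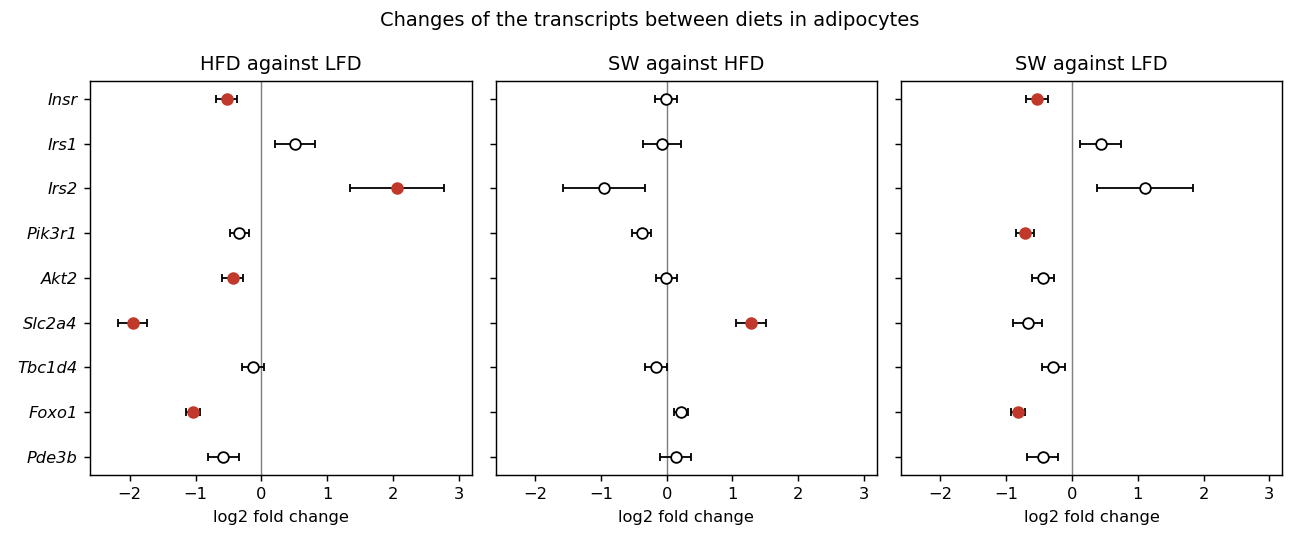
Fitted log2 fold change of each transcript in adipocytes for the 3 diet comparisons, with 1 standard error, from 1 model of 9 libraries. Filled red points passed the adjusted p threshold of 0.05 and open points did not. Slc2a4 is filled at -1.96 in HFD against LFD and at 1.28 in SW against HFD, and Foxo1 is filled at -1.04 and at -0.82 in the comparisons with LFD.

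Set side by side, the members differed in how much of the distance from HFD to LFD the SW mice covered on the log2 scale. This share was 65.5% for Slc2a4, 46.4% for Irs2, 21.4% for Foxo1, -1.98% for Insr and -1.11% for Akt2 among the 5 members called between HFD and LFD. Both changes in each share use the same HFD libraries, so the shares are a description with no test. They use changes without the correction for GC content and length. With that correction the SW against HFD log2 fold change was 0.68 for Foxo1, 0.47 for Insr and 0.09 for Akt2. The shares of Insr and Akt2 thus change sign with it. The HFD against LFD log2 fold changes moved too over the 15 alternatives. They ran from -1.42 to -0.99 for Foxo1, -0.95 to -0.47 for Insr and -0.55 to -0.34 for Akt2. The sizes and order of the shares therefore hold for the uncorrected changes only. The SW against HFD change of Slc2a4 lay between 1.11 and 1.49 in all 15 alternatives. The part of transcript length in the shares was not tested.

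Over the 9 adipocyte libraries, the 5 genes whose log2 CPM followed Slc2a4 most closely were Gcdh (Pearson's r = 0.993), Ndrg2 (0.991), Akap7 (0.988), Phgdh (0.988) and Nrbp2 (0.988), out of 9863 genes ranked. Gcdh is a mitochondrial enzyme of lysine and tryptophan breakdown, and Phgdh makes the first step of serine synthesis. Of the 7 members abundant enough to rank (all but Irs1 and Irs2), Foxo1 was the one most like Slc2a4 (r = 0.863), followed by Pde3b (0.750) and Akt2 (0.743), while Tbc1d4 (0.354) and Pik3r1 (0.388) were least like it. Insr and Pde3b went together at r = 0.934. All these points share the diet groups and library 407, and the correlations are given as a description.

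The rest of the pathway was read from 7 lists of 82 genes, chosen with earlier results of these data known. In HFD against LFD, 78 of them were tested in adipocytes, and 32 were higher and 15 lower, where 26.5% and 25% of all genes were, at a median log2 of 0.20. Akt kinases and mTOR complexes had 5 of 9 genes higher and 0 lower, and PI3K subunits 4 of 7 higher and 0 lower, against the same shares of all genes. In the second of these lists the largest rises were of Pik3r5 (2.97 ± 0.30) and Pik3cg (2.90 ± 0.24, log2 fold change ± SE), which form a PI3 kinase best known from leukocytes. Cbl, an adaptor and ubiquitin ligase, rose by 4.19 ± 0.45, Enpp1, a membrane protein that dampens the receptor, by 2.68 ± 0.22, and Lnpep, the aminopeptidase carried by GLUT4 vesicles, by 2.22 ± 0.28 on the same scale. The macrophage markers that rose in the same libraries are given above, and their part in these rises was not tested.

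Of the other glucose transporters, 8 were tested, and 4 were lower and 2 higher, against 25% and 26.5% of all genes. The higher ones, named after their values were seen, were Slc2a1 (0.52) and Slc2a9 (1.09). The falls were led by Slc2a12 (-1.59 ± 0.27) and Slc2a13 (-1.49 ± 0.25), the latter a carrier of myo-inositol. Eif4ebp1, the translation repressor that mTORC1 inactivates, fell by 1.60 ± 0.23 and Trib2, a pseudokinase, by 1.44 ± 0.17. Irs3, a rodent adaptor found mainly in fat cells, fell by 1.40 ± 0.29 on the log2 scale, from 44.7 to 62.4 CPM in LFD to 10.7 to 27.6 CPM in HFD libraries. In edgeR's test Slc2a1 had an adjusted p of 0.0185, and the other genes named here had adjusted p of at most 0.00269.

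In SW against HFD adipocytes, 10 of 78 list genes were higher and 23 lower, where 15.6% and 15.9% of all genes were, at a median log2 of -0.17. Of the 16 genes of GLUT4 vesicle traffic, 3 were higher and 5 lower, at a median log2 of -0.14. Vamp2 rose by 0.89 ± 0.14 and Aspscr1 (TUG, which tethers GLUT4 inside the cell) by 0.73 ± 0.18, while Lnpep fell by 1.66 ± 0.26 (log2 ± SE). Eif4ebp1 rose by 1.18 ± 0.23, Socs1, an inhibitor of cytokine and insulin signals, by 1.56 ± 0.39 and the transporter gene Slc2a6 by 1.03 ± 0.33. Cbl (-3.29 ± 0.39), Pde3a (-2.99 ± 0.67) and Igf1r (-1.32 ± 0.38) fell. In Vamp2 the LFD libraries (59.8 to 83.2 CPM) and SW libraries (56.6 to 68.1 CPM) both lay above the HFD libraries (32.0 to 35.9 CPM).

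In SW against LFD adipocytes, 11 of 78 list genes were higher and 6 lower, where 10.9% and 6.18% of all genes were, at a median log2 of 0.03. Socs3, another inhibitor of the receptor's signal, was higher by 2.26 ± 0.36, with 10.2 to 23.0 CPM in LFD and 50.8 to 97.0 CPM in SW libraries. Pik3r5 (2.12 ± 0.30), Enpp1 (1.93 ± 0.22), Slc2a6 (1.84 ± 0.36) and Pik3cg (1.76 ± 0.24) were higher as well. Slc2a13 (-1.30 ± 0.25), Trib2 (-1.25 ± 0.17), Slc2a12 (-1.18 ± 0.27), Grb10 (-0.71 ± 0.11, an adaptor that restrains the receptor) and Slc2a3 (-0.54 ± 0.15) were lower. The Akt and mTOR list had 0 of 9 genes called in this comparison by edgeR's test.

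Across fractions, the transcripts of GLUT4 and of Pde3b were higher in adipocytes in both diets tested, whereas that of Akt2 was lower there in SW mice. For this comparison all 15 libraries were scaled together, so the CPM below differ a little from those above, and no library number is shared between the fractions. In HFD mice 5 of 9 members were higher in adipocytes, where 12.9% of all 17441 genes were, and 0 were lower. In SW mice 7 were higher and 1 was lower, where 32.8% and 35.6% of all genes were.

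**Figure D5:**
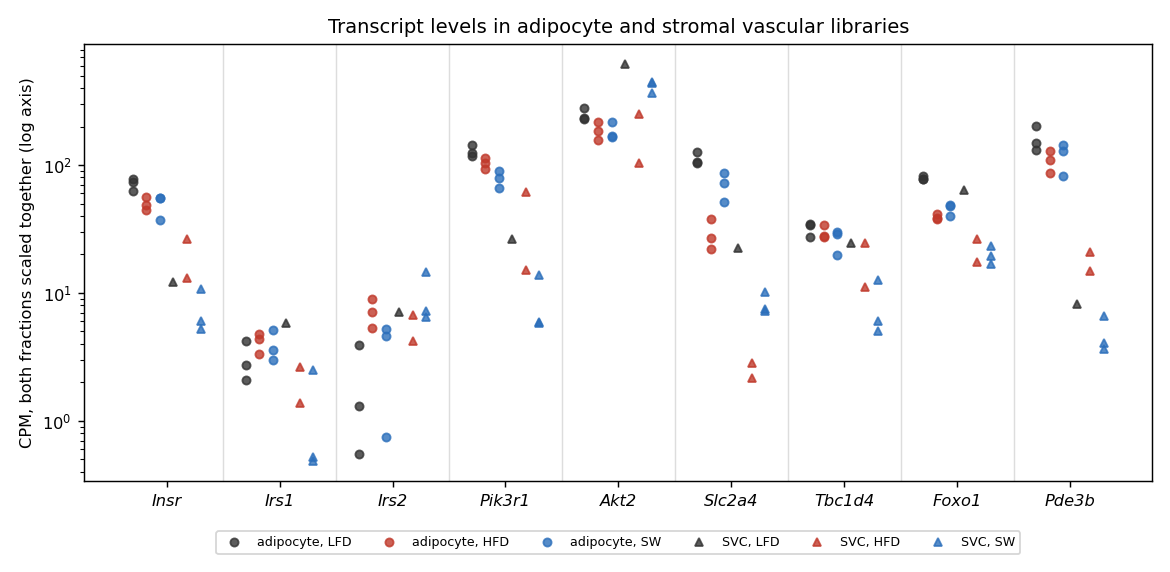
Level of each transcript in all 15 libraries, in CPM (log axis) with both fractions scaled together. Circles are adipocyte libraries and triangles SVC libraries, coloured by diet. Pde3b lies higher in every adipocyte library than in every SVC library, Slc2a4 does so within each diet (its LFD SVC library, at 22.5, is above the lowest HFD adipocyte library, at 22.1), and for Akt2 the SVC libraries of LFD and SW mice lie above all adipocyte libraries.

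Slc2a4 was at 22.1 to 38.0 CPM in HFD adipocytes and at 2.16 and 2.86 CPM in HFD SVCs, and at 51.1 to 86.5 CPM against 7.19 to 10.2 CPM in SW mice. The log2 differences were 3.54 ± 0.32 and 3.09 ± 0.26 (SE, adjusted p = 1.6e-05 and 5.4e-07). For Pde3b, HFD adipocytes had 86.4 to 129.9 CPM and HFD SVCs 14.8 and 21.01 CPM, and SW mice 81.5 to 144 CPM against 3.63 to 6.62 CPM. Its log2 differences were 2.60 ± 0.33 and 4.59 ± 0.32 (SE, adjusted p = 0.000206 and 1.9e-07). These 4 calls held in every alternative tried.

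Insr, Pik3r1 and Foxo1 were also called higher in adipocytes in both diets. In HFD mice the log2 differences were 1.35 ± 0.33, 1.43 ± 0.47 and 0.84 ± 0.19 (SE, adjusted p = 0.00898, 0.0350 and 0.00707), and in SW mice 2.71 ± 0.31, 3.16 ± 0.44 and 1.18 ± 0.17 (SE, adjusted p of at most 4.8e-05). The HFD calls of all 3 were lost without SVC library 411, at 0.94, 0.76 and 0.58. The HFD call of Pik3r1 was also lost in edgeR's test without adipocyte library 401, 402 or 403 (adjusted p = 0.0550 to 0.0841). It was lost too without the filter on low counts (0.0742) and in a fit of the compared groups only (0.113). That of Foxo1 was lost in the fit of the compared groups only (0.0662) and with the GC and length correction (0.0614). Irs1 (1.61 ± 0.53) and Tbc1d4 (1.69 ± 0.34) were called in SW mice, and in HFD mice stood at 1.03 ± 0.58 and 0.73 ± 0.37 without passing. The SW call of Irs1 was lost in edgeR's test without adipocyte library 408 (1.37, adjusted p = 0.0613). SVC libraries 412 and 414 had 4 counts of Irs1 each.

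Akt2 went the opposite way in SW mice, at 165 to 217 CPM in adipocytes and 365 to 449 CPM in SVCs, a log2 difference of -1.19 ± 0.27 (SE, adjusted p = 0.00163). With a correction for GC content and length this was -0.28 (adjusted p = 0.373). In HFD mice the SVC libraries had 103 and 252 CPM on either side of the adipocyte range of 156 to 219 CPM, and the difference of 0.07 ± 0.30 did not pass. Irs2 was at 6.53 to 14.5 CPM in SW SVCs and 0.749 to 5.27 CPM in SW adipocytes, with a log2 difference of -1.40 ± 0.64 (SE, adjusted p = 0.0650).

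Within the SVCs, on the scale of that fraction alone, Slc2a4 was called higher and Pde3b lower in SW than in HFD libraries. This is 1 of 9 members each way, against 5.71% of all 16319 genes higher and 11.7% lower. Slc2a4 was at 2.03 and 2.41 CPM in HFD (35 counts in each library) and at 6.16, 6.03 and 8.66 CPM in SW libraries, a log2 fold change of 1.64 ± 0.37 (SE, adjusted p = 0.0403). The single LFD library had 18.2 CPM, and no test was made against it. The summed adipocyte markers in these libraries followed the same order, 272 and 333 CPM in HFD, 445 to 655 CPM in SW and 851 CPM in LFD, and their part in the level of Slc2a4 was not tested.

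Pde3b was at 19.8 and 12.5 CPM in HFD and at 5.41, 3.40 and 3.09 CPM in SW SVC libraries, without overlap, a log2 fold change of -2.01 ± 0.39 (SE, adjusted p = 0.0377). The LFD library had 6.64 CPM. Both calls, of Slc2a4 and of Pde3b, were lost in edgeR's test without any 1 of the SW libraries 412, 413 and 414 (adjusted p up to 0.158). Without library 412 or without library 413, 0 of all genes were called. The call of Slc2a4 was also lost with limma-voom (adjusted p = 0.0501). Without HFD library 212, which leaves 1 HFD library, the log2 fold changes were 1.59 for Slc2a4 and -1.57 for Pde3b.

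Other members leaned on HFD library 212 or 411. Pik3r1 was at 57.7 CPM in library 212 and 12.8 CPM in 411, against 4.93 to 11.3 CPM in SW libraries, with a log2 fold change of -2.30 ± 0.68 (SE, adjusted p = 0.0600). Insr was at 24.6 and 10.97 CPM against 4.43 to 8.80 CPM, with -1.53 ± 0.47 (SE, adjusted p = 0.0649). Akt2 was at 96.8 and 213 CPM against 298 to 377 CPM, with 1.17 ± 0.38 (SE, adjusted p = 0.0706), and reached 498 CPM in the LFD library. Tbc1d4 was at 23.0 and 9.45 CPM against 4.33 to 10.3 CPM, with -1.29 ± 0.53 (SE, adjusted p = 0.117). Without library 411, Pik3r1 (-2.99), Insr (-1.99), Akt2 (1.86) and Tbc1d4 (-1.78) passed, and 6 members were called, while without library 212 none was. Each of these fits leaves 1 HFD library, which is assumed to vary like the SW libraries. Irs1, Irs2 and Foxo1 overlapped between the diets and had adjusted p from 0.330 to 0.544.

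In SVCs the change from HFD to SW ran with base composition over all genes (Spearman's rho 0.57 across genes, which are not independent replicates). It also ran with transcript length (rho -0.28). The median log2 fold change from HFD to SW was 0.71 in the 20% of genes richest in GC and -1.53 in the 20% poorest. The 3 members with the highest GC content in their longest transcript, Irs2 (56.6%), Akt2 (55.2%) and Slc2a4 (54.6%), were the 3 with a positive log2 fold change, and the other 6 members, from Irs1 at 50.3% down to Pde3b at 44.0%, were negative. With a correction for GC content and length, 0 members and 0 of all genes passed in edgeR's test, although 4775 genes had an unadjusted p under 0.05, and Slc2a4 and Pde3b stood at 1.04 and -0.84 on the log2 scale.

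Of the 81 list genes tested in SVCs, 4 were higher and 13 lower in SW than in HFD mice, where 5.71% and 11.7% of all genes were, and the list of GLUT4 vesicle traffic had 6 of its 16 genes lower.

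The response to the switch differed between the fractions for 4 of 9 members, where 27.1% of all genes differed in either direction. Adipocytes minus SVCs, the difference of the log2 fold changes was 1.99 ± 0.42 for Pde3b (SE, adjusted p = 0.00491), 1.36 ± 0.43 for Insr (0.0319), 1.73 ± 0.61 for Pik3r1 (0.0493) and -1.25 ± 0.41 for Akt2 (0.0356). Pde3b was called in all 20 alternatives, Insr in 12, Akt2 in 11 and Pik3r1 in 5. Over all genes this difference had a median log2 of 1.22 in the 20% poorest in GC and -0.61 in the 20% richest. With the GC and length correction Pik3r1 (1.19) and Akt2 (-0.66) did not pass in edgeR's test (adjusted p = 0.0979 and 0.281). Tbc1d4 (1.29, adjusted p = 0.0446) passed with it. The part of base composition in these differences was not tested. Without SVC library 212, Insr (0.74), Pik3r1 (0.37) and Akt2 (-0.75) did not pass. The rise of Slc2a4 was not shown to differ between fractions, with a difference of -0.46 ± 0.38 (SE, adjusted p = 0.406).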

How the data were processed

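RNA of adipocytes and SVCs was sequenced, and per the labels the reads were processed with Bowtie2, RSEM and limma on build mm9, with no versions named. The authors deposited estimated counts per gene as whole numbers without normalization. The labels list 18 libraries in 26 records. By these labels every adipocyte library had paired-end reads. Some adipocyte libraries of HFD and LFD mice, but none of SW mice, had single reads as well. Some HFD and LFD libraries of SVCs had single reads only. The SW libraries of SVCs had both kinds. The part of the kind of read in the differences between libraries was not tested. Columns name a fraction, a diet and a number found in no label, so 15 were used as replicates of their group and 3 columns of values were not used. No label ties a library to its own mouse, so p-values measure the spread between these libraries. SW titles name a low fat diet, and the treatment label gives the switch.

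With edgeR 4.0.16 (R 4.3.3), genes were filtered with filterByExpr (minimum count 10), scaled by TMM factors and tested with the robust quasi-likelihood test. Benjamini-Hochberg adjusted p-values under 0.05 over all genes were called. Adipocytes, SVCs and both fractions together were fitted separately. The fits were also run on simulated counts with the same spread for all genes and no trend with GC content or length. That run therefore does not cover the trends and uneven libraries seen here. CPM use TMM factors of the fit named. Lengths and GC content are of the longest GENCODE M21 transcript (96.4% of IDs matched). The 9 members are named throughout, with the 5 largest rises and falls per adipocyte comparison among called list genes (mean log2 CPM at least 1) and the 5 genes most like Slc2a4 (mean log2 CPM at least 3). An item that this rule also names is not reported here. Members and lists were chosen with earlier results of these data known. Alternatives were RLE and upper-quartile factors, other filters, DESeq2 1.42.0, limma-voom (limma 3.58.1), fits of the compared groups only and leaving out each library. The GC and length correction and a minimum fold of 1.2 were added after seeing the data. Within a group, libraries differed by 13.7 to 408 times counting noise (chi-square per degree of freedom), so each was counted as 1 replicate. Library totals ran from 5781902 to 23725647 counts.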

Additional observations from a re-analysis of the deposited data

Results flagged for a closer look

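For 4 members the response to the diet switch was unequal in adipocytes and SVCs by a test of the difference itself (edgeR's quasi-likelihood test of the interaction, Benjamini-Hochberg adjusted). The difference of the log2 fold changes, adipocytes minus SVCs, was 1.99 for Pde3b, 1.36 for Insr, 1.73 for Pik3r1 and -1.25 for Akt2. In SVCs these genes had log2 fold changes of -2.01, -1.53, -2.30 and 1.17, and in adipocytes of 0.14, -0.01, -0.38 and 0.00. Leaving out 1 of the 2 HFD libraries of SVCs, 212, brought the count of members that differ from 4 to 1, and leaving out the other, 411, brought it to 6, each in a fit where the lone HFD library is assumed to vary like the other groups. These libraries differed in mitochondrial (6.34% and 33.5%) and hemoglobin (0.287% and 3.09%) transcripts, whose part in the result was not tested.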

How the results depend on the processing

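No paired analysis was possible because the deposited columns carry numbers that are in no label. The count of members past the threshold was 5 in adipocytes for HFD against LFD, and 3 without the filter on low counts, 3 with a minimum fold of 1.2, 6 with DESeq2, 7 with upper-quartile factors, 7 in a fit of the compared groups only, 7 with the GC and length correction and 2 to 4 with 1 library left out. For SW against HFD it was 1, and 2 with DESeq2, 2 with the GC and length correction and 1 to 2 with 1 library left out. For SW against LFD it was 3, and 5 with DESeq2 and 4 with upper-quartile factors. In that comparison it was 2 with 10 counts required in every library, 2 in a fit of the compared groups only and 2 with a minimum fold of 1.2. With 1 library left out it was 2 to 3. In SVCs it was 2, and 4 with 10 counts required in every library, 5 with DESeq2, 1 with limma-voom, 0 with the GC and length correction and 0 to 6 with 1 library left out. Between fractions in HFD mice it was 5, and 3 in a fit of the compared groups only and 3 to 6 with 1 library left out. For the difference between fractions it was 4, and 1 in a fit of the compared groups only and 1 to 6 with 1 library left out. The causes of these shifts were not tested. The count of 8 between fractions in SW mice stayed within 1.5 times under all alternatives run.

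Signs turned for some changes that were not called. In SW against HFD adipocytes these were, with upper-quartile factors, Insr (0.0349) and Akt2 (0.0369), with limma-voom Akt2 (0.0068), in the fit of the compared groups only Akt2 (0.0038), and with the GC and length correction Insr (0.47), Irs1 (0.36), Pik3r1 (0.0572), Akt2 (0.0943) and Tbc1d4 (0.19). With 1 library left out, Insr ran from -0.12 to 0.15, Irs1 from -0.34 to 0.0701, Akt2 from -0.14 to 0.10, Tbc1d4 from -0.26 to 0.00 and Pde3b from -0.0426 to 0.34. In SVCs Foxo1 was 0.25 with the correction and -0.57 to 0.25 with 1 library left out. Between fractions in HFD mice Akt2 was -0.0303 with upper-quartile factors and -0.44 to 0.86 with 1 library left out, and the difference between fractions of Slc2a4 was 0.0873 with the correction. That correction moved the median log2 of all genes in SVCs from 0.03 to -0.16. Of the other alternatives per member and comparison, 821 kept the direction and the side of the threshold, 82 lost a call and 34 gained one.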
